A study of Mus musculus with 2 samples.

Results

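Resident-like macrophages of the mouse colon were single cells that combined transcripts of Mrc1, Retnla and C4b with related genes, and they numbered 138 of the 3173 cells kept from the 2 libraries. A cell was taken as one of them when it held at least 1 UMI, a tag that marks 1 captured RNA molecule, of at least 3 of 7 marker genes (Mrc1, Retnla, C4b, Psd3, Lpl, Ccl7 and Clec4b1). It also had to hold at least 1 UMI of Csf1r, Lyz2 or Cd14, none of Flt3, and fewer than 3 of the 6 inflammatory genes Arg1, Nos2, Ptges, Cxcl3, Slc7a2 and Egln3. The markers had been picked from these same cells, so the levels of those 17 genes are a description of the choice and not a finding. The rule found 78 of 2443 kept cells in the IL-10R KO library and 60 of 730 in the IL-10R/CerS2 DKO library.

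Both libraries came from the colons of chimeric mice in which bone marrow of a mutant donor had been placed in a CD45.1 recipient, and both donors lacked the IL-10 receptor. The study names Il10rb as the receptor gene deleted in both. The DKO donor lacked in addition CerS2, the synthase that makes ceramides with very long chains. A library of mice with an intact IL-10 receptor was not analysed here. Cells had been sorted for the donor form of CD45 and for CD11b, CD11c and CD64. There was 1 library for each genotype, so genotype cannot be told apart from mouse, sort and library, no test was possible, and every interval below is a 95% interval that covers counting error only.

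Most macrophages of the gut wall are renewed from blood monocytes, which enter through the chemokine receptor CCR2 and then lose Ly6C while they gain F4/80, complement C1q and scavenger receptors. IL-10 acts on these cells to restrain their response to microbes. Mrc1 encodes the mannose receptor CD206, which takes up glycoproteins, Retnla encodes RELMα, a secreted protein induced by IL-4 and IL-13, and C4b encodes a complement protein of the classical pathway, and macrophages that carry such genes are often called alternatively activated.

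Levels were computed from UMIs summed over a set of cells and are given per 1000000 UMIs of that set (CPM). The resident-like cells held 452370 UMIs in KO and 324084 in DKO, with a median of 5374 UMIs per cell in KO and 5003 in DKO, close to the 5719 and 5821 of the other cells with at least 1 Csf1r UMI. Those other Csf1r+ cells, 1225 in KO and 227 in DKO, served as the comparison, although a resident-like cell itself needed no Csf1r UMI. Of these, the 488 KO and 82 DKO cells that held all of C1qa, C1qb and C1qc (C1q+ cells) were used as a nearer comparison. Neither comparison was bound by the rule's conditions on Flt3 and the 6 inflammatory genes. In the other Csf1r+ cells Arg1 was at 334 CPM in KO and 0.714 in DKO, Cxcl3 at 548 and 8.57 and Nos2 at 203 and 10.7. A low ratio in the resident-like cells can thus also reflect which cells the comparison held. The libraries shared 1 barcode, which was not that of a resident-like cell. A doublet caller marked 9 KO cells and no DKO cell, too few to show that it had worked, and the 5% of cells with the highest doublet scores held 5 resident-like cells of each library.

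The marker with the highest level in the set was Retnla (ENSMUSG00000061100, chromosome 16, 48842551 to 48844461, plus strand, GRCm38). Its RefSeq promoter, the 250 bases before the start at chr16:48842359-48842608 on the plus strand, is shown for that reason, and its last bases lie inside the longer gene model just given. The capitals mark letters of 3 of 5 motifs searched on both strands: ACTTCCTC, the reverse complement of GAGGAAGT, then TTC and its reverse complement with 4 bases between them, then GTCAGCA, the reverse complement of TGCTGAC. That spacing is bound by STAT6, the factor downstream of IL-4 and IL-13, GAGGAAGT holds the core bound by PU.1, and TGCTGAC is the MAF half-site.
Retnla: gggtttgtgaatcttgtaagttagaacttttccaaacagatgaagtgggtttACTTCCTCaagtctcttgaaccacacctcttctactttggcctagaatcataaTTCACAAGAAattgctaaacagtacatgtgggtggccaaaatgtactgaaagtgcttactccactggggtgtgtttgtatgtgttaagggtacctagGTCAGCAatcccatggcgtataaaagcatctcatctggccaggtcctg
The promoter of Pros1, which encodes protein S, a ligand of receptors for dying cells, lies at chr16:62854057-62854306 on the plus strand. It is shown because, among the 25 highest genes, it holds the STAT6 spacing together with TTCNNNGAA, the spacing of other STAT proteins, both in capitals.
Pros1: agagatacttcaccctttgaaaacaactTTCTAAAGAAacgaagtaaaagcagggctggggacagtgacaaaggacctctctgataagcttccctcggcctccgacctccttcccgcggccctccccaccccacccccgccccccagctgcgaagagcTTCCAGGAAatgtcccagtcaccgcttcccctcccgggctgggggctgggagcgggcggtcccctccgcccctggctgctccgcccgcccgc
Of 6441 genes compared, 411 (6.38%) were at least 2-fold higher in the resident-like cells than in the other Csf1r+ cells of both libraries and 215 (3.34%) at least 2-fold lower, and 326 of the 411 had a RefSeq promoter of 300 bases on GRCm38.p6. Of these, 7.67% held the STAT6 spacing, against 6.53% of the promoters of the genes compared and 8.01% of all promoters, and 9.51% held TTCNNNGAA, against 8.24% and 9.55%. Both spacings were more frequent in the promoters of the lower genes, at 10.6% and 11.2%, so neither was particular to the higher genes. GAGGAAGT was in 7.67% of the promoters of the higher genes, 4.69% of those compared and 3.69% of all, while it was in 7.65% of the promoters of the 170 lower genes with an entry. TGCTGAC stood in 5.83%, 4.32% and 5.28%, and CACGTG, the E-box of the TFEB family, in 16.3%, 13.3% and 8.09%. In the promoters of the lower genes TGCTGAC stood in 1.76% and CACGTG in 10%. Short letters of this kind recur in many promoters, and a match is a description and not a bound site.

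Among the cells that met the other conditions of the rule, 1675 in KO and 402 in DKO, most held few markers. In KO 1211 held none, 285 held 1, 101 held 2, 42 held 3, 21 held 4, 11 held 5 and 4 held 6. In DKO the counts were 207, 93, 42, 26, 21, 7 and 6, and no cell of either library held all 7. The count thus fell off without a gap at the limit of 3 markers. Just outside it, cells with 2 markers had Retnla at 1.70 CPM in KO and 249 in DKO, Mrc1 at 280 and 440, Lpl at 151 and 149 and Ccl7 at 408 and 349. Just inside it, cells with 3 markers had Retnla at 1088 CPM in KO and 1141 in DKO, Mrc1 at 493 and 957, Lpl at 198 and 307 and Ccl7 at 793 and 386.

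**Figure D1:**
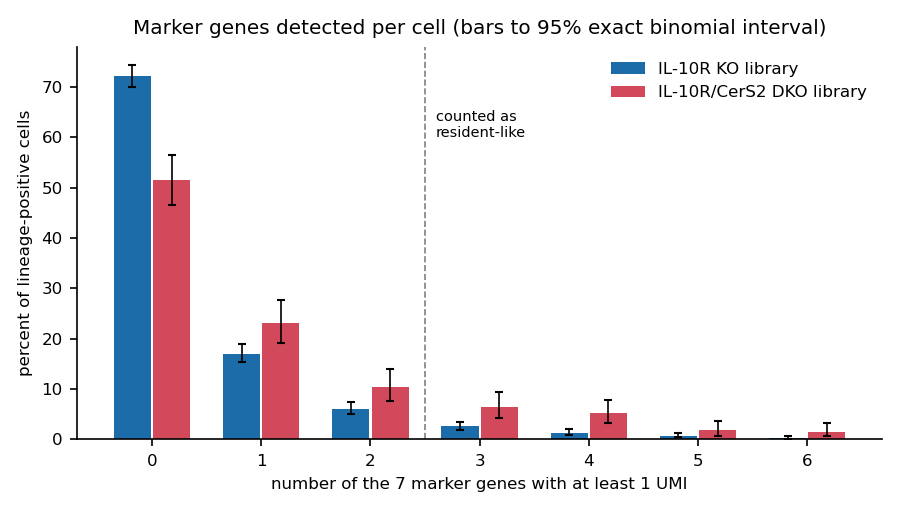
Number of the 7 marker genes found in each cell that met the other conditions of the rule, as a percent of those cells in each library (1675 in KO, 402 in DKO), with exact 95% intervals that cover counting error only. The bars fall off without a gap at the limit of 3 markers, with 101 KO cells and 42 DKO cells at 2 markers and 42 and 26 at 3.

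The resident-like cells made up 3.19% (2.53 to 3.97) of the kept cells in KO and 8.22% (6.33 to 10.5) in DKO. The share was also higher in DKO among cells that met the rule's other conditions, at 4.66% in KO and 14.9% in DKO, and when every cell was drawn down to 2000 UMIs, at 1.46% and 5.58%. A share rises when other cells are fewer, and the DKO library held far fewer cells in all, so more resident-like cells and fewer others cannot be told apart. The KO share moved to 7.33% with a limit of 2 markers and to 1.47% with a limit of 4, and the DKO share to 13.97% and 4.66%.

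Mrc1 was the marker found most often, in 69 of 78 KO and 55 of 60 DKO resident-like cells, at 617 CPM (546 to 694) in KO and 892 in DKO. It was at 40.8 CPM and 104 CPM in the other Csf1r+ cells. Retnla reached the highest level of the 7, at 2467 CPM in KO and 2583 in DKO, but came from 25 KO and 34 DKO cells, with up to 163 UMIs in a KO cell and up to 201 in a DKO cell. The other Csf1r+ cells had Retnla at 0.407 CPM in KO and 42.9 in DKO. C4b was found in 38 KO and 19 DKO cells, at 340 CPM and 148 CPM.

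Lpl, the lipoprotein lipase that frees fatty acids for uptake, was at 367 CPM in KO and 589 in DKO. Ccl7, which attracts monocytes through CCR2, was at 783 and 969 CPM. Clec4b1, a C-type lectin of the myeloid Clec4 cluster on chromosome 6, was at 97.3 and 154 CPM, and Psd3, an exchange factor for small GTPases, at 81.8 and 92.6 CPM. Of the 3 lineage genes, Csf1r was found in 57 of 78 KO and 36 of 60 DKO cells, and in others Lyz2 or Cd14 alone met the condition.

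The name resident-like was checked against markers that the rule did not use. All 78 KO cells and 56 of the 60 DKO cells held at least 2 macrophage markers, and C1qa, C1qb and C1qc were found together in 69 of 78 KO cells and 45 of 60 DKO cells, against 39.8% and 36.1% of the other Csf1r+ cells. The defining genes of long-lived tissue macrophages were few. Lyve1 had 8 UMIs in each library, from 2 KO and 3 DKO cells. Folr2, a folate receptor, had 16 UMIs in 8 KO cells and 11 in 4 DKO cells. Cd163, the haemoglobin scavenger receptor, had 1 UMI in KO and 7 in DKO, Timd4 had 0 and 3, and Cd209b, Cd209d, Cd209f, Vsig4 and Marco had none. Ccr2, the receptor of newly arrived monocytes, was found in 55 KO and 45 DKO cells, at 418 and 500 CPM against 174 and 166 in the other Csf1r+ cells. Resident-like thus names a set with C1q and Mrc1 in which the Timd4, Lyve1 and Cd163 program was at or near 0 and Ccr2 was high.

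Monocyte markers were found in many of the cells, with 2 or more of the 5 in 32 of 78 KO and 14 of 60 DKO cells, against 631 of 1225 and 99 of 227 of the other Csf1r+ cells. Markers of other lineages were scarce. No resident-like cell held 2 or more T cell, epithelial, fibroblast or endothelial markers, while 1 DKO cell held 2 or more B cell markers, 1 held 2 or more dendritic cell markers and 1 held 2 or more neutrophil markers. The 4 neutrophil markers summed to 48.6 CPM in KO and 49.4 in DKO, against 415 and 1568 in the other Csf1r+ cells. In cells with T or B cell markers and no Csf1r, a background for free RNA, Retnla had 1 UMI over 462 KO cells and none over 248 DKO cells.

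Genes outside the rule were then compared between the resident-like cells and the other Csf1r+ cells of the same library. The 6441 genes compared had at least 20 UMIs in each library. For 350 of the 411 and 151 of the 215, the counting intervals of both libraries lay on the same side of 0. Against the C1q+ cells, 300 of the 411 were still at least 2-fold higher in both libraries. Among the genes past 2-fold, 65.7% were higher, but the split was 38.3% after scaling by TMM, which lowered the median log2 ratio over all genes from 0.14 to -0.11 in KO and from 0.19 to -0.10 in DKO. TMM moved every ratio by -0.25 in KO and -0.29 in DKO. It was 40.5% when the resident-like cell with most UMIs of each gene was left out. Cells were selected by their transcripts and the sums rest on 78 and 60 cells, so these counts describe the sets and are not tests. Counts given for gene lists below are to be read beside the shares over all genes compared, 6.38% higher and 3.34% lower.

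**Figure D2:**
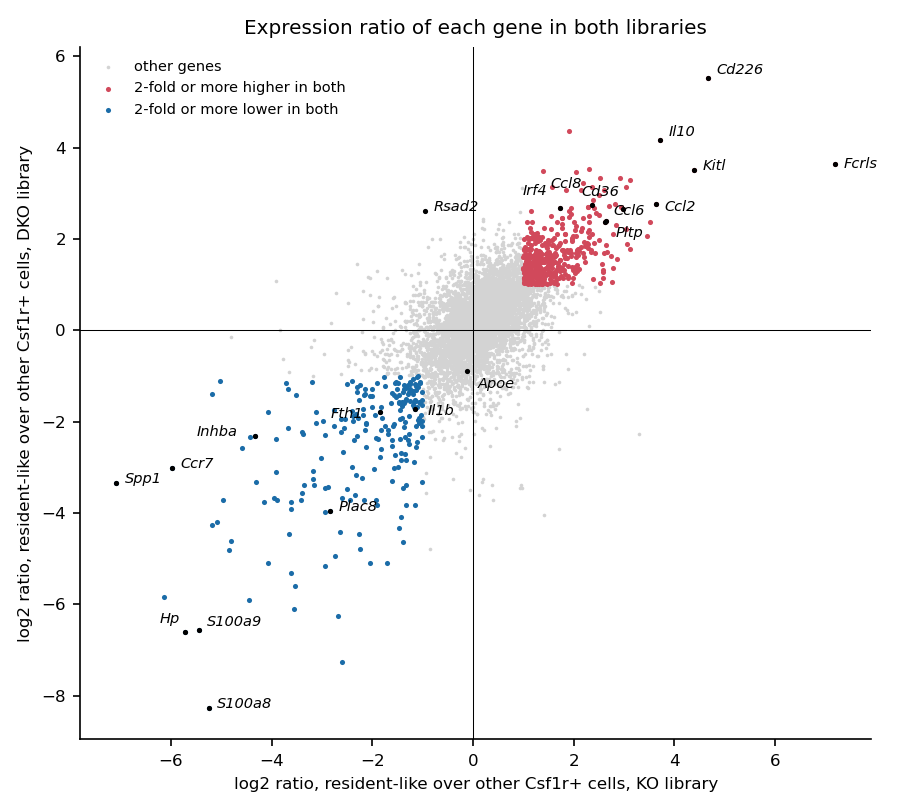
Log2 ratio of resident-like over other Csf1r+ cells for each of the 6441 genes compared, in the KO library (x axis) and in the DKO library (y axis), with a selection of named genes labelled in black. Genes with no UMI in a group are plotted at the value with 0.5 counts added, as are all others, and the 411 genes in the upper right and 215 in the lower left passed 2-fold in both libraries.

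The highest genes included surface receptors and lectins of macrophages. Cd226, an adhesion receptor that binds CD155 and is better known from T and NK cells, was at 42.0 CPM in KO against 1.63 in other Csf1r+ cells (log2 ratio 4.67, 3.57 to 5.87), and at 80.2 against 1.43 in DKO (5.52, 3.81 to 8.93). It was found in 12 KO and 13 DKO cells. Fcrls, a scavenger receptor-like protein known from microglia, was at 88.4 CPM against 0.542 in KO (7.20) and at 154 against 12.1 in DKO (3.64). Mgl2, the galactose-type lectin CD301b, was at 208 against 27.2 CPM in KO (2.94) and 305 against 47.1 in DKO (2.69). Cd36, the scavenger receptor that takes up oxidized lipoproteins and fatty acids, was at 303 against 38.6 CPM (2.97, 2.67 to 3.27) and 435 against 68.6 (2.66, 2.28 to 3.06). All 4 were past 2-fold higher in each library, though Cd226 rested on few cells.

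Genes of secreted proteins formed the next group. Il10, the cytokine whose receptor the donors lacked, was at 128 CPM against 9.76 in KO (log2 ratio 3.72, 3.19 to 4.23) and at 133 against 7.14 in DKO (4.16, 3.20 to 5.37). It came from 17 KO and 10 DKO cells, and 1 DKO cell held 53.5% of that library's Il10 UMIs. Kitl, the stem cell factor that sustains mast cells, was at 28.7 against 1.36 CPM in KO (4.39) and 92.6 against 7.86 in DKO (3.52). F13a1, the A chain of coagulation factor XIII, was at 144 against 25.2 CPM (2.52) and 253 against 24.998 (3.33), and Pros1 was at 35.4 against 5.56 (2.70) and 43.2 against 6.43 (2.72). Pltp, which transfers phospholipids between lipoproteins, was among the most widely found, in 66 of 78 KO cells and 52 of 60 DKO cells, at 546 against 88.0 CPM (2.64) and 710 against 134 (2.40). Detection of these transcripts therefore differed in spread, from Pltp in most cells to Il10 in a minority. Depth limits detection at the lower level of Il10, and no protein was measured.

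The others of the 25 highest were Gbp2b, an interferon-induced GTPase at 329 against 38.0 CPM in KO and 225 against 22.9 in DKO, and Dok2, an adaptor of tyrosine kinase signalling at 155 against 29.8 and 253 against 35.0. Wwp1, Cd2, Flrt3, Lima1, Ms4a8a, Dhrs3, Fhl3, Ear2, Trim47, Camk2g and Ank had log2 ratios of 2.31 to 3.51 in KO and 2.36 to 3.33 in DKO. In thinned cells Cd2 was found in 2.74% of the resident-like cells in KO and 9.26% in DKO. It was found in 46.2% and 36.7% of the cells with T or B cell markers and no Csf1r, and the part of free RNA or doublets was not tested. Ear2 had 21 and 18 UMIs and reversed to -0.35 in KO when cells were thinned to 2000 UMIs and the set was chosen again. The 3 chemokine genes, described next, complete the list.

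Several CC chemokine genes of chromosome 11 were high in the resident-like cells, but not Ccl5. Ccl2 (82035571 to 82037453, GRCm38), Ccl7, Ccl12 and Ccl8 (up to 82116799) lie in one run and Ccl9, Ccl6 and Ccl4 (83572919 to 83664683) in another. Ccl6 was the most abundant, at 2533 CPM against 413 in KO (log2 ratio 2.62, 2.52 to 2.71) and 2413 against 463 in DKO (2.38, 2.23 to 2.53). It was found in 69 of 78 and 51 of 60 cells, with a median of 8 UMIs per cell in KO and 7 in DKO. Ccl2, the main ligand of CCR2, was at 502 against 40.4 CPM (3.64, 3.38 to 3.89) and 494 against 72.9 (2.76, 2.39 to 3.13). Ccl8 was at 1258 against 244 CPM (2.37) and 389 against 57.9 (2.75), but 1 cell held 32.0% of its UMIs in KO and 53.2% in DKO. Ccl9 was at 840 against 181 (2.21) and 744 against 194 (1.94), Ccl4 at 1377 against 284 (2.28) and 1663 against 256 (2.70), and Ccl12 at 199 against 37.3 (2.42) and 102 against 31.4 (1.70). Ccl4 was found in 39 KO and 24 DKO cells and rested on few of them. A single KO cell held 172 of its 623 UMIs, and DKO cells with 202, 174 and 76 UMIs held most of 539. Ccl7 was itself a marker, so the choice of cells bears on these levels. In the 27 KO and 29 DKO cells without Ccl7, Ccl2 was at 208 and 90.3 CPM and Ccl4 at 556 and 90.3. Ccl8 was at 0 and 147 CPM there, the latter from 1 cell, and Ccl12 at 0 and 22.6. Only Ccl2 in both libraries, Ccl4 in KO and Ccl8 in DKO then lay above the other Csf1r+ cells.

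Of the 11 CC chemokine genes compared, 6 were past 2-fold higher and 3 past 2-fold lower in both libraries, and the list's median was 2.21 in KO and 1.70 in DKO, against 0.14 and 0.19 over all genes. Ccl5, which lies next to Ccl9 and is known from T cells and inflammatory myeloid cells, was among the 3 lower, at 657 against 1749 CPM in KO (-1.41) and 318 against 950 in DKO (-1.57). Ccl17 had 1 UMI in KO and none in DKO, and Ccl22 had 2 and none. The CC chemokine genes thus stood on both sides of the other Csf1r+ cells, and the choice of cells by Ccl7 bears on the list's median.

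**Figure D3:**
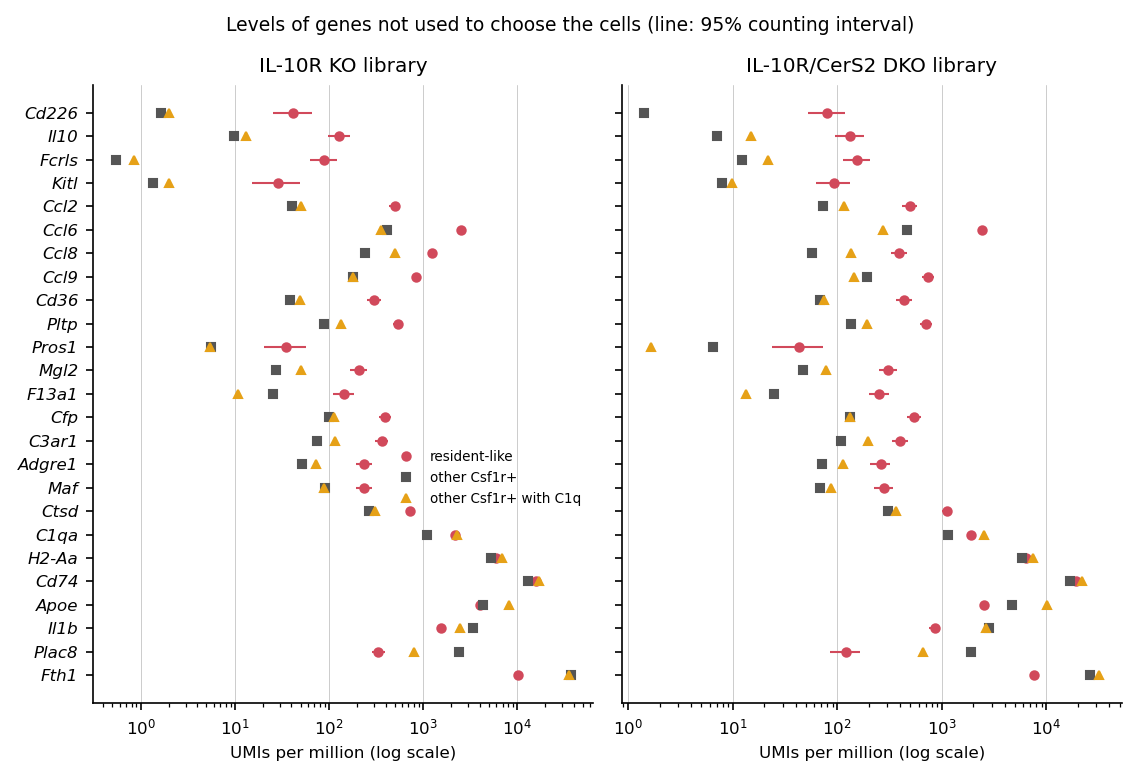
Level in CPM on a log axis of genes in resident-like cells, other C1q+ Csf1r+ cells and other Csf1r+ cells of each library, with the exact 95% interval of counting error drawn for the resident-like cells. A gene with no UMI in a group, such as Cd226 in the C1q+ cells of DKO, has no point there, and Ccl6 sits at 2533 CPM in KO and 2413 in DKO in the resident-like cells.

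The genes lowest in the resident-like cells included those of neutrophils, and 3 of the 4 neutrophil markers were past 2-fold lower in both libraries. S100a8 and S100a9, the calprotectin genes, had 1 and 2 UMIs in KO, against 126 and 241 CPM in the other Csf1r+ cells, and 0 and 3 UMIs in DKO, against 474 and 1026 CPM. Few cells carried that level: S100a8 was found in 69 of 1225 other Csf1r+ cells in KO and 8 of 227 in DKO, and S100a9 in 46 and 9. S100a8 was at least 51.2-fold lower in DKO on a floor of 3 counts. G0s2, an inhibitor of lipolysis, had no UMI in either library, against 77.7 and 88.6 CPM, at least 11.7-fold lower in KO and 9.57-fold in DKO. Ass1, which makes argininosuccinate for arginine synthesis, was at 15.5 against 476 CPM (log2 ratio -4.84, -6.26 to -3.90) and 12.3 against 391 (-4.82, -6.87 to -3.62). Slpi, a protease inhibitor of inflamed mucosa, was at 17.7 against 525 CPM and 6.17 against 189. Hp, Ly6i, Ifitm1, Pdlim7, Plet1, Ms4a4a and Ocstamp each had at most 4 UMIs in either library. Against the C1q+ cells of DKO no fold could be given, as G0s2 had no UMI and S100a9 had 3 UMIs in each of the sets.

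Genes of the path from monocyte to macrophage did not move as one. Of 15 circulating monocyte genes, 2 were past 2-fold higher and 8 past 2-fold lower in both libraries. Plac8 was at 336 CPM against 2409 in KO (-2.84, -3.08 to -2.61) and 120 against 1898 in DKO (-3.96, -4.47 to -3.52), and Ly6c2 at 59.7 against 178 and 30.9 against 215. Ccr2 and Fn1, which encodes fibronectin, were the higher ones, with Fn1 at 535 against 121 CPM (2.14) and 719 against 85.7 (3.07). The list's median was -1.55 in KO and -1.41 in DKO, or -0.76 and -0.95 with genes at 0 UMIs put at their bound, but 0.73 and 0.47 against the C1q+ cells, so its direction depended on the comparison.

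Of 30 genes listed for resident and alternatively activated macrophages, 13 had enough UMIs, 8 of these were past 2-fold higher in both libraries and 1 was past 2-fold lower, and their median was 2.52 in KO and 2.07 in DKO. Pf4, platelet factor 4, was at 568 against 78.8 CPM (2.85) and 580 against 117.1 (2.31). Selenop, the selenium carrier, was at 570 against 121 (2.23) and 509 against 179 (1.51). Clec10a, the lectin CD301a, was at 64.1 against 13.4 (2.27) and 98.7 against 26.4 (1.90). Among 22 mature colonic macrophage genes, 5 were higher and 3 lower past 2-fold, against 6.38% and 3.34% of all genes compared. Adgre1, which encodes F4/80, was at 239 against 51.5 CPM (2.22) and 259 against 72.1 (1.85). That list's median was 0.18 and -0.37, and -0.07 and -0.66 under TMM, so the set was not high for mature genes as a group.

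Of 12 complement genes with enough UMIs, 6 were past 2-fold higher in both libraries and 1 past 2-fold lower, with a median of 1.11 in KO and 1.09 in DKO. The shares over all genes compared were 6.38% and 3.34%. C1qb was at 2790 against 1307 CPM (1.09) and 3027 against 1400 (1.11), and the receptor gene C3ar1 at 365 against 74.6 (2.29) and 398 against 108 (1.88). Cfp, which encodes properdin, a stabiliser of the alternative pathway, was at 396 against 101 (1.97) and 540 against 132 (2.03), and C5ar1 was also past 2-fold. C3 went the other way, at 166 against 264 CPM (-0.66) and 55.5 against 135 (-1.25). Against C1q+ cells the C1qb ratio was 0.11 in KO and -0.06 in DKO, as that comparison was chosen on C1q.

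Inflammatory genes were split. Il1b was at 1543 against 3418 CPM in KO (-1.15, -1.26 to -1.04) and 852 against 2824 in DKO (-1.73, -1.91 to -1.55). In contrast Tnf was at 203 against 70.0 (1.55) and 151 against 54.3 (1.48), and the neutrophil attractant Cxcl1 at 522 against 127 (2.04) and 272 against 55.7 (2.28). Cxcl2 was at 5060 against 2670 CPM (0.92) and 3419 against 961 (1.83). Of 24 genes of the list, 4 were past 2-fold higher and 4 past 2-fold lower in both libraries, with medians of 0.29 and 0.39. Over all genes compared, 6.38% were past 2-fold higher and 3.34% lower. Inhba, a subunit of activin, was at 26.5 against 560 CPM in KO (-4.34) and 24.7 against 129 in DKO (-2.31).

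Immediate early and stress genes, which cell isolation is known to induce, were high in sum. Their level over 16 genes was 14517 CPM against 6350 in KO and 11454 against 6804 in DKO, with 4 genes past 2-fold higher in both libraries and none lower. Egr1 was at 760 against 127 CPM in KO (2.58) and 420 against 173 in DKO (1.28), and Dusp1 at 1331 against 324 (2.04) and 1068 against 332 (1.69). Several chemokine genes were also higher in the set, but whether they varied with the stress genes from cell to cell was not computed. The part of the stress genes in the levels of Ccl2, Ccl4 and Tnf was not tested.

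Of 26 sphingolipid genes compared, 3 were past 2-fold higher and 1 past 2-fold lower in both libraries, counts of the order that the shares over all genes, 6.38% and 3.34%, give. Sgms1, a sphingomyelin synthase, was at 104 against 21.6 CPM in KO (2.28, 1.77 to 2.75) and 136 against 20.7 in DKO (2.70, 2.004 to 3.44). Sgpp1, which removes phosphate from sphingosine-1-phosphate, and Galc, a lysosomal galactosylceramidase, were higher by 1.90 and 1.20 in KO and 1.40 and 1.07 in DKO on 9 to 17 UMIs. Smpdl3b was lower, at 35.4 against 79.8 CPM and 9.26 against 63.6. Of 20 genes of lipid uptake, storage and efflux 2 were higher and 3 lower past 2-fold, and Apoe, the lipoprotein of mature macrophages, was at 4039 against 4362 CPM in KO (-0.11) and 2533 against 4716 in DKO (-0.90). Fth1, the ferritin heavy chain and one of the most abundant transcripts, was at 10323 against 37033 CPM (-1.84) and 7532 against 26012 (-1.79), while Hmox1, which degrades haem, was at 382 against 135 (1.51) and 367 against 94.99 (1.95).

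Of 31 macrophage transcription factor genes, 6 were past 2-fold higher and 1 past 2-fold lower in both libraries. The shares over all genes compared were 6.38% and 3.34%, so the lower count was of the order they give. Maf, which is needed for late macrophage differentiation, was at 237 against 91.8 CPM (1.37) and 278 against 67.9 (2.03), and Irf4, which acts in the response to IL-4, at 37.6 against 11.7 (1.72) and 111 against 17.1 (2.69). Runx3 was the lower one, at 197 against 441 and 136 against 394. Of 18 lysosome genes 2 were past 2-fold higher and none lower, again of the order that the shares over all genes give, with the protease gene Ctsd at 734 against 267 CPM (1.46) and 1117 against 302 (1.89). Antigen presentation genes were near the level of other Csf1r+ cells: Cd74, the invariant chain, was at a log2 ratio of 0.29 and 0.19, and the list's median was 0.14 and 0.12, and -0.12 and -0.18 under TMM. Of the sort antigens, Itgam, which encodes CD11b, was higher (1.17 and 1.46) and Itgax, which encodes CD11c, lower (-2.41 and -1.77).

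The cells were also close to one another in genes that the rule did not use. In a space of 30 principal components built without the 17 rule genes over 1590 resident-like and other Csf1r+ cells, 8.68% of the cells were resident-like. Among the 20 nearest neighbours of a resident-like cell, 52.9% (SD 22.9 over 78 cells) were resident-like in KO and 60.3% (SD 25.3 over 60 cells) in DKO. For the other cells the share was 2.44% and 6.01%. With every cell thinned to 2000 UMIs it was 43.1% and 50.4% for the resident-like cells. Cells are not replicates, and 132 of the 138 lay above the overall share.

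Within the set, the cells were split by whether Retnla and Ccl7 were found. The 2 genes did not exclude each other. Among all cells that met the rule's other conditions, 12 KO and 14 DKO cells held both, where the product of their shares gives 1.84 and 4.35. In KO, 12 cells held both, 13 held Retnla only, 39 held Ccl7 only and 14 held neither, and in DKO the numbers were 14, 20, 17 and 9. Since each cell had to hold 3 of 7 markers, a cell without Ccl7 had to hold others, so the division itself is shaped by the rule. Of 2476 genes compared, 28 were at least 2-fold higher and 29 at least 2-fold lower in cells with Retnla than in cells without it in both libraries. For Ccl7 the numbers were 66 and 33, and for C4b 12 and 11.

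Fn1, Fcrls, Ccl6 and Mt2 were higher in cells with Retnla only than in cells with Ccl7 only. Fn1 was at 1242 CPM in the 13 Retnla-only cells of KO and at 158 in the 39 Ccl7-only cells, and at 1522 and 115 in the 20 and 17 such cells of DKO. Fcrls was at 298 against 9.88 CPM in KO and 276 against 93.8 in DKO. Ccl6 was at 4690 against 1472 and 3893 against 1115. Mt2, a metallothionein that binds zinc, was at 349 against 4.94 in KO, where 1 resident-like cell held 63.4% of all its UMIs, and 298 against 41.7 in DKO. The monocyte gene Plac8 was at 349 against 282 CPM in KO and 59.7 against 115 in DKO, so its order differed between the libraries.

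Apoe, Maf and the chemokine genes Ccl2, Ccl4, Ccl8 and Ccl12 were higher in cells with Ccl7 only, unlike Ccl6. Apoe was at 6218 CPM in the Ccl7-only cells of KO and 369 in the Retnla-only cells, and at 5250 and 104 in DKO. Among the Ccl7-only cells, 1 KO cell held 325 of 1259 Apoe UMIs and 1 DKO cell held 224 of 504. Ccl4 was at 2386 against 123 CPM in KO and 5261 against 104 in DKO, and Ccl2 at 820 against 298 and 1073 against 74.6. The Ccl4 level rested on few Ccl7-only cells. A single KO cell held 172 of 483 UMIs, and DKO cells with 202, 174 and 76 UMIs held most of 505. Ccl8 and Ccl12 had no UMI in the Retnla-only cells of either library, against 1788 and 375 CPM in the Ccl7-only cells of KO and 927 and 177 in those of DKO. Maf was at 375 against 30.8 CPM in KO and 417 against 67.1 in DKO. C1qa differed less, at 2475 against 1827 CPM in KO and 2667 against 1096 in DKO, so both kinds carried complement C1q.

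**Figure D4:**
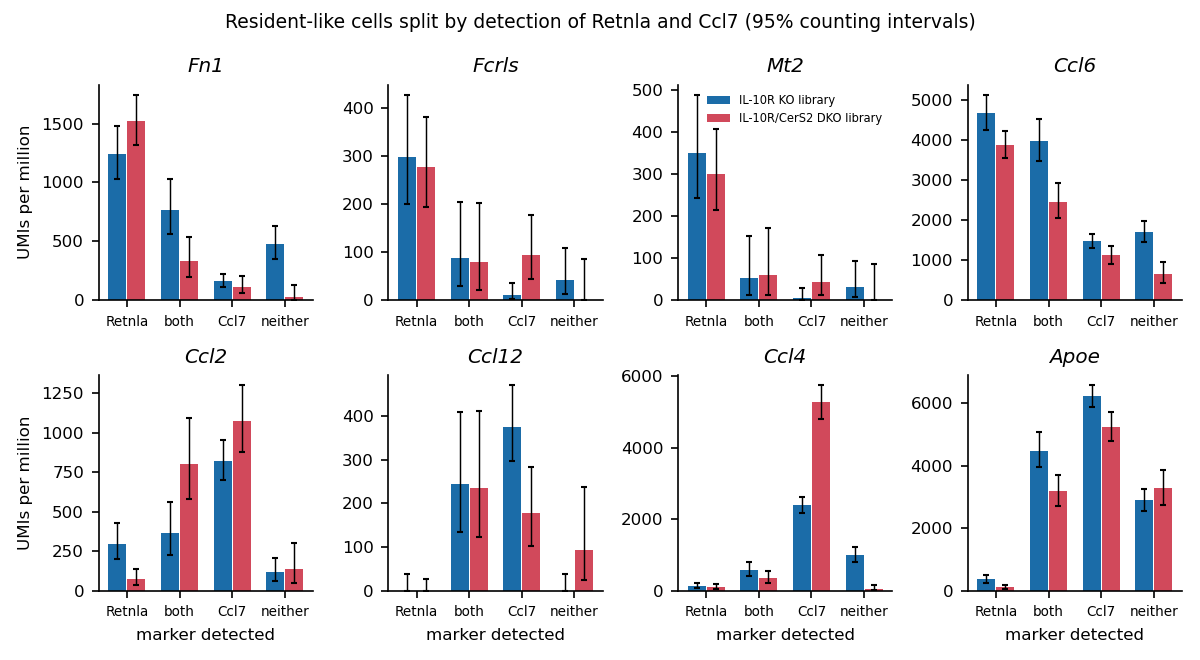
Level in CPM of genes in resident-like cells with Retnla and Ccl7 (12 KO, 14 DKO), Retnla only (13, 20), Ccl7 only (39, 17) and neither (14, 9), by library. Fn1 is highest in Retnla-only cells (1242 and 1522 CPM), Apoe and Ccl4 are highest in Ccl7-only cells, and Ccl12 has no UMI in Retnla-only cells. Bars are sums over the cells and lines are exact 95% intervals of counting error. Most Ccl4 UMIs of the DKO Ccl7-only cells came from few cells.

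Few genes, 12 and 11 of 2476, differed with C4b past 2-fold in both libraries, and the 3 given here are among the highest. Cells with C4b, 38 in KO and 19 in DKO, had Gdf15, a stress-induced cytokine, at 390 CPM against 57.2 in KO (log2 ratio 2.73, 1.94 to 3.71) and 1140 against 86.5 in DKO (3.69, 3.02 to 4.49). Selenop was at 805 against 372 CPM (1.11) and 882 against 359 (1.30), and Pmp22 at 116 against 44.9 (1.33) and 172 against 73.6 (1.23). Other genes past 2-fold had intervals that held 0 in DKO, such as P2rx7 (-0.11 to 2.73) and Glul (-0.08 to 2.28). The number of genes that differed with C4b was smaller than with Retnla or Ccl7.

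The last comparison set the DKO cells against the KO cells of the set. Cers2 (ENSMUSG00000015714, chromosome 3, 95314791 to 95323599, GRCm38), which the DKO donors lacked, was the check of the labels: it had 24 UMIs in 19 of the 78 KO cells, 53.1 CPM, and no UMI in the 60 DKO cells, at least 5.73-fold lower on a floor of 3 counts. The other Csf1r+ cells had 45.5 CPM in KO and no UMI in DKO. Il10rb, the receptor chain that the study deleted in both donors, had 3 UMIs in KO and 2 in DKO, with no intact library to set beside them. Il10ra, the chain that was not deleted, was at 102 CPM in KO and 114 in DKO.

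Of 4637 genes with enough UMIs (at least 20 over the cells compared), 164 were at least 2-fold higher in DKO (3.54%) and 153 at least 2-fold lower (3.3%), and for 118 and 101 of these the counting interval left out 0. Over all 4637 genes, the interval lay above 0 for 6.69% and below 0 for 5.78%. The median over all genes was 0.06. These calls rested on few UMIs: with the same cells thinned to 2000 UMIs, 2051 genes had enough UMIs to be compared, 59 were higher and 86 lower, and 11 and 17 of those were among the 164 and 153. Of the called genes 51.7% were higher, and 38.7% under TMM.

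The highest genes in DKO had 4 to 11 UMIs in KO. Ramp3, which modifies receptors of the calcitonin family, went from 8.84 to 61.7 CPM (log2 ratio 2.67, 1.23 to 4.81), with 0.27 in the other Csf1r+ cells. Stab1, a scavenger receptor of resident macrophages, went from 22.1 to 95.7 CPM (2.07, 1.05 to 3.31), from 9 of 78 cells to 13 of 60, with 0.47 in the others. H2-DMb2, which loads peptides on MHC class II, went from 22.1 to 92.6 CPM (2.02), but it also differed by 1.39 in the others. Zfp467, Wdfy1, Slc25a37, Pqlc1, Pafah1b2, Polr1c and Pigt had log2 ratios of 1.73 to 2.52.

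The lowest gene was Gm47283, annotated on chromosome Y (90784738 to 90816464), with 105 UMIs in 54 KO cells and none in DKO, at least 25.1-fold lower. The loss was not limited to the set, since the other Csf1r+ cells differed by -7.24. Xist was at 561 CPM in KO and 571 in DKO, and Ddx3y, Uty, Eif2s3y and Kdm5d, genes of the Y chromosome, had no UMI in any kept cell of either library. Mid1 on chromosome X, looked at after these values were seen, had 200 UMIs in the kept KO cells and 6 in the kept DKO cells. Over all kept cells Gm47283 had 3626 UMIs in KO and 10 in DKO. The libraries thus differed in genes other than Cers2, which bears on every DKO against KO value, and a difference between the mice beyond the named deletions cannot be told apart from genotype here. Sirpb1c went from 68.5 to 9.26 CPM (-2.69) and Icosl, which encodes a ligand of the T cell receptor ICOS, from 39.8 to 6.17 (-2.41). Gm26870 was at 712 and 120 CPM, but 87.2% of its DKO UMIs came from 1 cell. Coro7, Mrpl13, Nod1, Commd3 and Fxyd2 had log2 ratios of -2.41 to -2.14.

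More abundant genes had narrower intervals. Within the set, Hspa1a was at 588 CPM in KO and 204 in DKO (-1.52, -1.94 to -1.14) and Jun at 610 and 275 (-1.15, -1.51 to -0.80), while the other Csf1r+ cells differed by 0.02 and 0.20. These are stress genes, and 12 of the 16 genes of that list were lower in DKO, with a median of -0.38 against 0.10 in the other Csf1r+ cells. Of all genes compared, 44.7% were lower in DKO. Plac8 was at 336 and 120 CPM (-1.47, -2.03 to -0.97; others -0.34), Il1b at 1543 and 852 (-0.86, -1.06 to -0.65; others -0.28) and Apoe at 4039 and 2533 (-0.67, -0.79 to -0.55; others 0.11). Ccl8 was at 1258 and 389 CPM (-1.69), but the other Csf1r+ cells differed by -2.07.

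Higher in the DKO cells were Ctsd, at 734 CPM in KO and 1117 in DKO (0.61, 0.39 to 0.83; others 0.18), Dab2, an endocytic adaptor, at 298 and 497 (0.73, 0.40 to 1.08; others -0.05), and Irf4, at 37.6 and 111 (1.54, 0.69 to 2.49; others 0.58). Fn1 was at 535 and 719 (0.43, 0.16 to 0.69; others -0.50). The list of inflammatory genes had 4 of 22 genes higher and 18 lower in DKO, with a median of -0.52 in the set and -0.91 in the other Csf1r+ cells, while 55.3% of all genes compared were higher and 44.7% lower. The list of resident and alternatively activated genes had a median of 0.40 in the set and 0.58 in the others. The DKO set also held a larger share of cells with Retnla, 34 of 60 against 25 of 78, and a smaller share with Ccl7 only, 17 of 60 cells against 39 of 78 in KO, and the part of this mix in the levels of Apoe, Fn1 and Ccl8 was not tested.

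**Figure D5:**
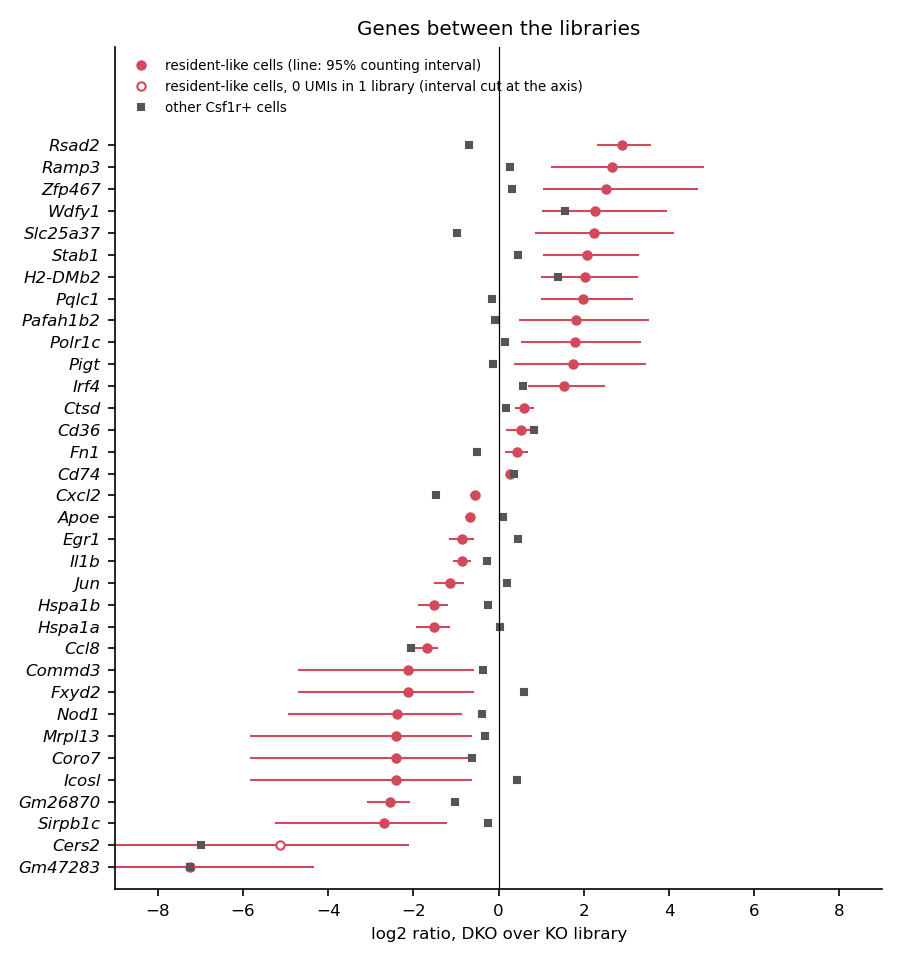
Log2 ratio of DKO over KO within the resident-like cells and within the other Csf1r+ cells for named genes, with the exact 95% interval of counting error drawn for the resident-like cells. Open circles mark genes with no UMI in a group, and Hspa1a and Jun lie at -1.52 and -1.15 in the resident-like cells and near 0 in the others.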

How the data were processed

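Single cells of the mouse colon were measured by droplet 3′ RNA-seq in 1 library of IL-10R KO and 1 of IL-10R/CerS2 DKO chimeras. The authors deposited unnormalized UMI counts for every gene and barcode, from Cell Ranger 6.0.1 on mm10. The submitters' processing notes also name Seurat 4.3.0. The cell filter followed the study: between 300 and 5000 genes, and mitochondrial UMIs of no more than 10%. Doublets were not removed. The resident-like cells, the gene lists and the named genes were chosen with earlier results of these data known.

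UMIs were summed over cells. Log2 ratios had 0.5 counts added to each sum. Intervals at 95% were exact Poisson for sums, exact conditional for ratios and Clopper-Pearson for shares. With 1 library per genotype no test was run. Genes needed at least 20 UMIs over the compared cells, and the 17 rule genes were left out. The named genes were the 25 highest and 12 lowest by their weaker library, and the 10 highest and 10 lowest of DKO over KO, found in at least 5 cells. Other genes named with values came from the lists and were chosen for their roles after values were seen. Alternatives were edgeR 4.0.16 TMM factors, thinning to 2000 UMIs, other limits on markers and UMIs, and removal of doublet-like cells, scored in scanpy 1.11.5. Promoters came from RefSeq (GRCm38.p6), and gene positions from a GENCODE annotation of GRCm38. Python 3.11.15, scipy 1.17.1 and R 4.3.3 were used. C4a and Clec7a were not analysed here.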

Additional observations from a re-analysis of the deposited data

Results flagged for a closer look

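For 6 genes named in the lists, the resident-like cells lay above the other Csf1r+ cells in one library and below them in the other, with counting intervals that left out 0 in both. The differences between the libraries were not tested, and values are DKO minus KO of the log2 ratio. Abca1, which exports cholesterol, differed by 1.34 (-0.33 in KO, 1.01 in DKO), Fcgr3, a low affinity Fc receptor, by 1.03 (-0.38, 0.65), and Ier3, an early response gene, by 0.85 (-0.28, 0.58). Rsad2, an interferon-induced gene, differed by 3.57 (-0.95, 2.62), and 1 cell held 55.7% of its DKO UMIs. S100a6 differed by -0.81 (0.61, -0.21). Saa3 differed by -4.32 (1.71, -2.61), with 90.3% of its KO UMIs in 1 cell and 1 UMI in DKO.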

How the results depend on the processing

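No paired analysis was possible because each genotype had 1 library, and no library could be left out. The share of resident-like cells stayed higher in DKO in each of the settings given next. It was 7.33% in KO and 13.97% in DKO with 2 markers, 1.47% and 4.66% with 4, 1.46% and 5.58% with thinned cells, 4.45% and 13.7% of Csf1r+ cells, and 4.01% and 12.4% without cells of T, B or epithelial markers. Chosen after seeing the data, it was 4.66% and 14.9% of cells meeting the other conditions, and 1.80% and 5.07% without Mrc1 among the markers. It was 2.17% in KO and 6.85% in DKO without Ccl7, 2.497% and 7.53% without C4b, and 2.54% and 6.30% without Lpl.

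Genes higher and lower in the set (411 and 215) were 219 and 353 under TMM, 266 and 390 without the cell with most UMIs, 163 and 105 of 2485 with cells thinned and chosen again, 221 and 126 of 3480 with the same cells thinned (added), and 1265 and 354 with no minimum of UMIs. The higher genes were 618 at 10 UMIs, and the lower ones 124 against C1q+ cells and 132 between C1q+ cells of both sets (added). With only the resident-like cells that held Csf1r, 357 and 231 of 6263 genes were called, of which 306 and 182 were the same (added). For DKO against KO those cells gave 156 and 130 of 3773, of which 60 and 78 were the same. Of DKO against KO (164 and 153), 49 and 50 of 1107 were called with cells thinned and chosen again, of which 1 and 8 were the same genes, 59 and 86 of 2051 with the same cells thinned, 433 and 359 at 10 UMIs and 1805 and 1891 with no minimum, and 92 were lower with 4 markers. Of 27 lists, 18 had medians above 0 in both libraries and 4 below, against 9 and 11 under TMM. The number below 0 was 7 with 4 markers, 2 thinned and 8 without the top cell.

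The circulating monocyte median turned to 0.73 in KO and 0.47 in DKO against C1q+ cells, and to 0.69 and 0.034 between C1q+ cells. Ear2 turned to -0.35 (KO, chosen again) and -0.16 (DKO, same cells thinned), Plet1 to 0.22 in KO, Wdfy1 to -0.18 and Coro7 to 1.40, all thinned. The causes were not tested. For G0s2 and S100a9 in DKO the computed ratios, 0.90 against C1q+ cells and 1.26 between C1q+ cells, are only the ratio of the UMI totals, as both sets held the same few UMIs (0 and 3 against C1q+ cells), and are neither folds nor a change of direction. Depth limits genes under 20 UMIs, for which no ratio was called.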
